A study of Mus musculus with 8 samples.

Results

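Mitochondrial ribosomal protein genes were examined in the brains of male mice given the neonicotinoid insecticide clothianidin. The genes are those whose platform symbol is Mrpl or Mrps followed directly by a digit, which gave 76 probe sets for 76 genes among 22206 probe sets on the array. Of these, 48 were Mrpl genes, named for the large ribosomal subunit, and 28 were Mrps genes, named for the small subunit. RNA came from cerebral cortex and hippocampus of mice aged 12 weeks after 2 weeks of clothianidin at 50 mg/kg/day, a dose described as one without observed adverse effect, or of vehicle, 1% DMSO. Each of the 4 groups (cortex control, cortex exposed, hippocampus control, hippocampus exposed) held 2 arrays, numbered 1 and 6 in the controls and 3 and 6 in the exposed mice of both tissues. No genetic modification was described and the strain was not given. The labels do not say whether an array carries RNA of 1 mouse or a pool, or whether equal numbers mark the same mouse, so p-values measure the spread between these arrays.

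Mitochondria keep ribosomes of their own, which translate the few messages of the mitochondrial genome, all of them for core subunits of the respiratory chain and ATP synthase. Every protein of these ribosomes is encoded in the nucleus, made in the cytosol and imported. Some descend from bacterial ribosomal proteins, and others were added in the mitochondrial lineage. Several symbols are historical. The products of Mrps18a and Mrps30 sit in the large subunit, and the product of Mrps36 is now assigned to the 2-oxoglutarate dehydrogenase complex. Neurons depend heavily on oxidative phosphorylation, and inherited defects of mitochondrial ribosomal proteins are known to affect the brain.

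The 8 arrays had median log2 values of 5.21 to 5.40 over all probe sets, and the 2 arrays of each group correlated with r of 0.987 to 0.992 across probe sets. Most tissue markers went with the tissue labels. Tbr1, a transcription factor of cortical projection neurons, lay at 15.0 to 15.83 in cortex and 12.31 to 13.17 in hippocampus, and Prox1, which marks dentate granule cells, lay at 6.44 to 6.87 and 11.34 to 11.96. Of the cortex list, Bcl11b went the other way and was higher in hippocampus by 3.38. Fezf2, also on that list, differed by only -0.25. Hippocampus control array 1 stood apart in markers of the choroid plexus, the epithelium that secretes cerebrospinal fluid. Cortex control array 6 did so mainly in the leading marker Ttr. The mean log2 level of that list was 9.97 and 5.50 on these 2 arrays against 3.76 to 4.74 on the other arrays. Ttr reached 19.51 and 15.41 against 4.17 to 7.76. Of the 8 tested markers, 100% lay above their own 8-array mean on hippocampus control array 1. On cortex control array 6 this was 37.5%, the same share as on hippocampus control array 6. Where these 2 arrays are called rich or richest in choroid plexus markers below, the list mean is meant. All 9 microglia markers were lower in exposed than in control cortex, by a median of 0.305. The exposed hippocampus had 8 of 10 cortex marker probe sets, of 9 genes, above control, with a median of 0.53 over the 10. Rorb had 2 of these probe sets, at 0.25 and -0.135. The 8 include Bcl11b, which did not mark cortex in these data. In bulk tissue, fewer cells of a type and less RNA per cell cannot be told apart, and the part of these markers in the results below was not tested.

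Mitochondrial ribosomal protein genes are known for compact promoters without a TATA box and for sites of NRF1, of the ETS factor GABP and of YY1. In the RefSeq promoter table (mouse build GRCm38.p6), 67 of the 76 genes were found, with 73 windows of 300 bases that run from 250 bases before to 50 bases after a start of transcription. Each motif was searched on both strands as plain letters. GCGCANGCG (NRF1) stood in 16 of 73 windows (21.9%) against 6.25% of all 32851 windows, and CCGGAAG (ETS) in 25 windows (34.2%) against 8.86%. AAGATGGC (YY1) stood in 12 windows (16.4%) against 2.75%, while TATAAA stood in 5 (6.85%) against 13.6%. The windows of these genes had a median GC content of 58.3% against 52.7% for all windows. A start of another gene on the opposite strand lay head to head within 1000 bases in 26 of 67 genes (38.8%) against 12.3% of 27025 genes. A match is a description of the letters, not a measured binding site.

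The stretches shown are those of the genes on which the results turn: Mrpl3 and Mrpl34 have the smallest p in the exposure comparisons, Mrpl14 and Mrps7 in the tissue comparison, and Mrps11 and Mrpl46 share 1 stretch between their starts. Each is given 5′ to 3′ on the plus strand and ends at the last base before the start of transcription of the plus-strand gene. Capitals mark the ETS letters.
Mrpl3, chr9:105053118-105053267: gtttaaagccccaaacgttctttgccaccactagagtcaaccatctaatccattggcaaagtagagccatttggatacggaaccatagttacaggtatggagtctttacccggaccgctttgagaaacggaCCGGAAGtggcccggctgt
Mrpl34, chr8:71464776-71464925: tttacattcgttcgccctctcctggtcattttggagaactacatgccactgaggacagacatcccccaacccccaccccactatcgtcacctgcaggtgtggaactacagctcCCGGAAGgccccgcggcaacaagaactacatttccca
Mrpl14, chr17:45686199-45686348: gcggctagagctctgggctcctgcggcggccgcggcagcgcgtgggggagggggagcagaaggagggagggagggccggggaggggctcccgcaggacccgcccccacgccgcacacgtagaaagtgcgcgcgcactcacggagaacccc
Mrps7, chr11:115603990-115604139: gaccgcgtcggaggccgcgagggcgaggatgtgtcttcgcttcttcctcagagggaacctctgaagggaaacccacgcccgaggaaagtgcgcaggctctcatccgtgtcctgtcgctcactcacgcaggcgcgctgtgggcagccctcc
Mrps11 and Mrpl46, chr7:78783089-78783130: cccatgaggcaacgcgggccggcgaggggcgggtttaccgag
The ETS letters began 19 bases before the start in Mrpl3 and 37 bases before it in Mrpl34. The stretches of Mrpl14, Mrps7 and the shared one held none of the motifs. In the 50 bases after the start, not shown, Mrpl14 held the NRF1 letters and Mrps7 the YY1 letters.

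Values are log2 probe set signals, and a difference of 1 is a doubling. Of the 76 genes, 75 passed a filter that left out the lowest 33.3% of probe sets by mean (below 3.94), and 14804 probe sets were tested in all with limma. Mrpl54, a large-subunit protein, was the gene left out, with values of 3.20 to 4.52 on the control arrays and 2.91 to 4.25 on the exposed arrays. By tissue it was at 3.96 to 4.52 in cortex and 2.91 to 3.45 in hippocampus, and it was not tested. A gene is said to be called when its p, adjusted by Benjamini-Hochberg over all 14804 probe sets, was under 0.05.

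The first comparison asks how these genes differed between exposed and control cortex. No mitochondrial ribosomal protein gene was called, where 1 of all probe sets (0.00675%) was. The smallest adjusted p among the genes was 0.74. With an unadjusted limma p under 0.05 there were 6 of 75 (8%), 2 higher and 4 lower in exposed mice, against 6.18% of all probe sets, so that this share lay near the background. Exposed cortex was lower than control for 46 genes and higher for 29, with a median difference of -0.11 against -0.025 over all probe sets. Split by name alone, Mrps and Mrpl genes had medians of -0.12 and -0.11. For 52 of 75 genes (69.3%) the 95% interval of the difference lay inside a change of 2-fold in either direction, against 63.2% of all probe sets.

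Mrpl3, a conserved large-subunit protein near the peptidyl transferase centre, was at 9.34 and 9.44 in control cortex and at 10.27 and 10.30 in exposed cortex. Both exposed arrays lay above both control arrays. The difference was 0.895 ± 0.231 (SE; limma adjusted p = 0.74). Its replicates were closer together than those of most probe sets. The residual SD of Mrpl3 was 0.0444, and limma, which draws each gene's spread towards that of probe sets of like level, used 0.231.

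Mrpl34, a small conserved large-subunit protein, was at 7.49 and 6.68 in control cortex and at 5.95 and 5.56 in exposed cortex. The groups did not overlap, and the control arrays were further apart than the exposed arrays. The difference was -1.33 ± 0.353 (SE; limma adjusted p = 0.74), the one exposure difference of over 1 among these genes. Its 95% interval ran from -2.10 to -0.56, and the alternatives moved the estimate between -1.74 and -0.93.

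Mrps17, an RNA-binding protein of the small subunit, was at 8.39 and 8.60 in control and at 7.80 and 7.32 in exposed cortex. Both exposed arrays lay below both controls, by a mean of 0.935 ± 0.280 (SE; limma adjusted p = 0.74). Mrpl13, a conserved large-subunit protein, went the other way, from 9.08 and 8.90 to 9.84 and 9.92. That difference was 0.89 ± 0.275 (SE; limma adjusted p = 0.74). The other genes with p under 0.05 were Mrpl49 and Mrpl52, both proteins of the mitochondrial lineage. Mrpl49 was at 8.86 and 8.78 in control and at 8.05 and 8.26 in exposed cortex (difference -0.665, adjusted p = 0.784). Mrpl52 was at 6.78 and 6.89 against 6.18 and 5.78 (difference -0.855, adjusted p = 0.801). None of these 6 differences passed the adjusted threshold.

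**Figure D1:**
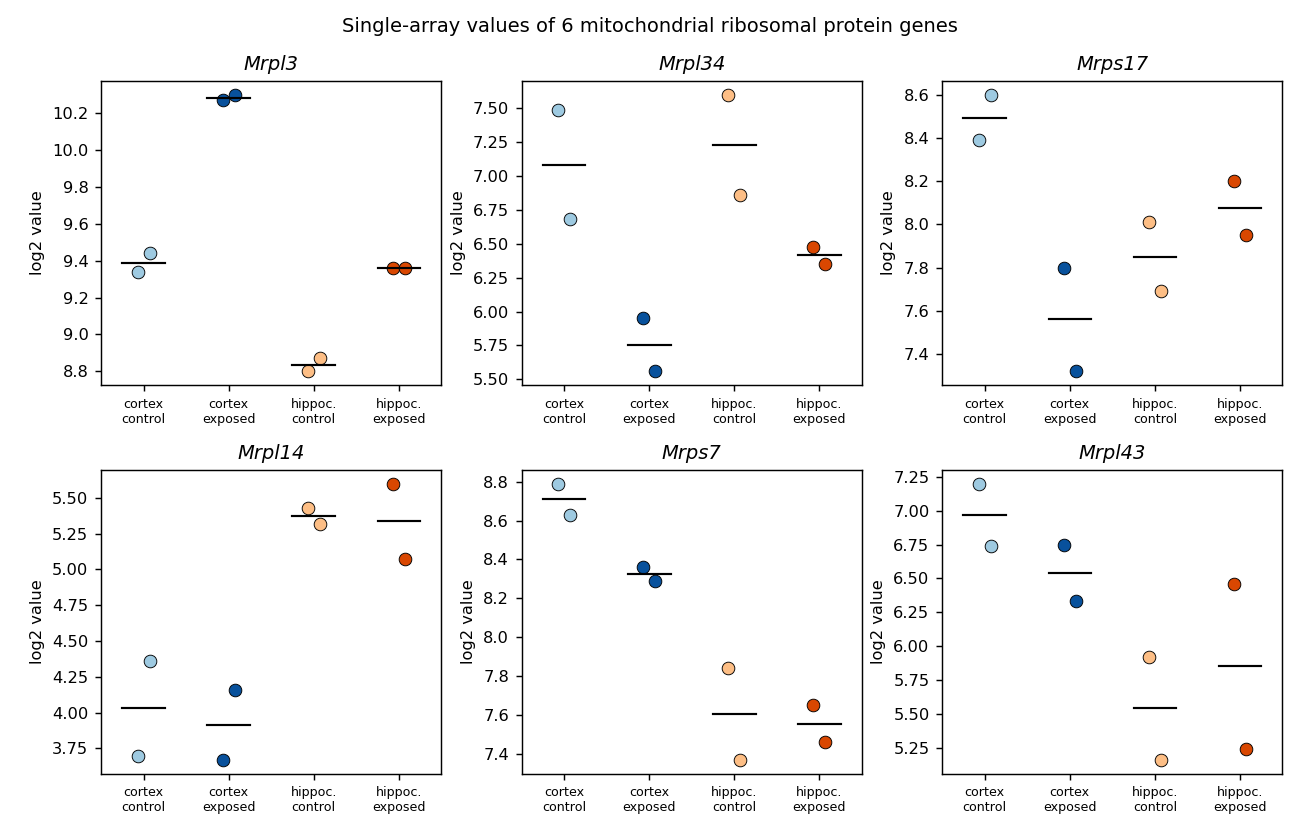
Log2 values of 6 mitochondrial ribosomal protein genes on each of the 8 arrays (vertical axis, log2 signal; a panel per gene with its own scale). Points are single arrays, 2 per group, and bars are group means; exposed arrays lie above controls for Mrpl3 and below them for Mrpl34 in both tissues, and Mrpl14 lies higher and Mrps7 lower in hippocampus.

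In hippocampus, exposure again left no mitochondrial ribosomal protein gene called, where 1 of all probe sets (0.00675%) was. The smallest adjusted p was 0.842. Only Mrpl34 and Mrpl3 had an unadjusted limma p under 0.05, which is 2 of 75 genes (2.67%) against 5.81% of all probe sets. The genes divided into 34 higher and 40 lower, with a median of -0.04 against 0.005 over all probe sets. That median turned to 0.1 without hippocampus control array 1, the array richest in choroid plexus markers, to 0.14 without exposed array 6 and to -0.185 without exposed array 3.

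Mrpl34 was at 7.60 and 6.86 in control hippocampus and at 6.48 and 6.35 in exposed hippocampus. The exposed arrays were again below both controls, by a mean of 0.815 ± 0.353 (SE; limma adjusted p = 0.842). Mrpl3 was at 8.80 and 8.87 in control and at 9.36 on both exposed arrays. The difference was 0.525 ± 0.231 (SE; limma adjusted p = 0.847), and its 95% interval ran from 0.02 to 1.03. Both genes thus had non-overlapping groups in the same direction in both tissues, without passing the adjusted threshold in either.

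Exposed arrays lay on the same side of the controls in both tissues for 5 genes. They were lower for Mrpl23 and Mrpl34, where 4.17% of all probe sets did this, and higher for Mrpl3, Mrpl50 and Mrps16, where again 4.17% did. Mrps16, a conserved small-subunit protein, was at 4.57 and 4.73 in control and 5.23 and 5.02 in exposed cortex, and at 4.65 and 4.56 in control and 5.05 and 5.08 in exposed hippocampus. Mrpl50, a large-subunit protein, was at 8.60 and 8.68 against 8.95 and 8.79 in cortex, and at 8.72 and 8.34 against 9.09 and 8.73 in hippocampus, where the nearest control and exposed values nearly met. Mrpl23, at the exit of the peptide tunnel, was at 7.77 and 7.92 against 7.66 and 7.70 in cortex, and at 8.39 and 8.06 against 7.74 and 8.05 in hippocampus. Its nearest hippocampal values, 8.06 and 8.05, also nearly met. With 2 arrays per group such an order is frequent, and these counts lie near the background shares.

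When arrays sharing arm and number were averaged over the tissues before the fit, no gene was called, where 1 of all probe sets (0.00675%) was. Mrpl34 and Mrpl3 again were the 2 genes with an unadjusted limma p under 0.05 (2.67% against 5.97% of all probe sets). The averaged difference was -1.07 ± 0.278 (SE; limma adjusted p = 0.805) for Mrpl34 and 0.71 ± 0.210 (SE; limma adjusted p = 0.807) for Mrpl3. The median over the genes was -0.025 against -0.005 over all probe sets. For 69 of 75 genes (92%) the 95% interval lay inside a change of 2-fold, against 89.7% of all probe sets.

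**Figure D2:**
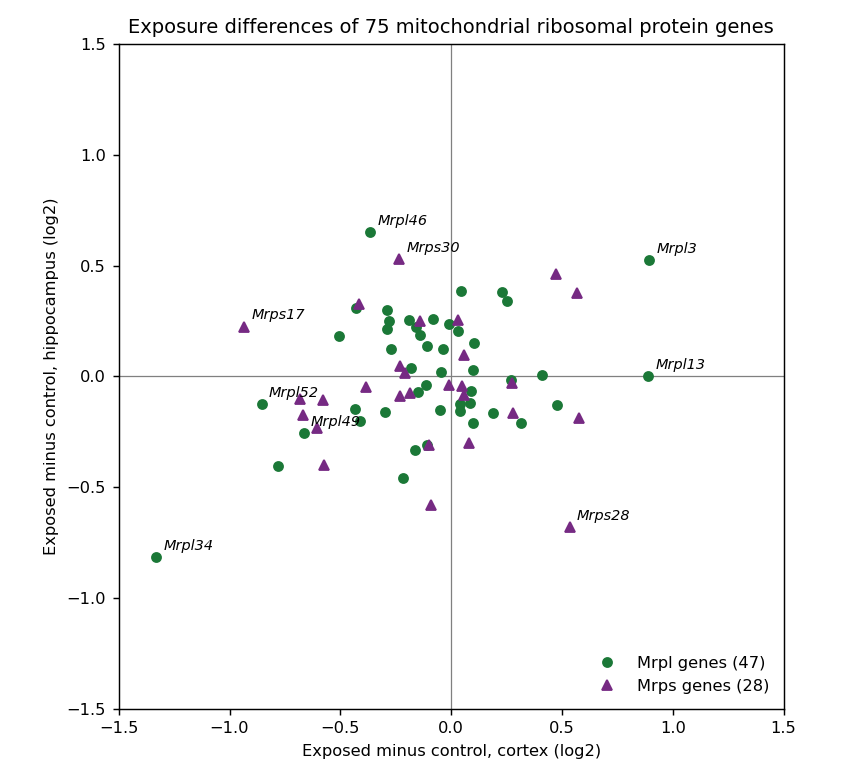
Exposed minus control difference in cortex (horizontal axis, log2) and in hippocampus (vertical axis, log2) for the 75 genes tested; green circles are Mrpl genes and purple triangles Mrps genes. Mrpl34 lies at -1.33 and -0.82 and Mrpl3 at 0.895 and 0.525, while most other genes lie near the centre.

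The exposure differences were then set against each other between the tissues, as hippocampus minus cortex. No gene was called here, and neither was any of all probe sets (0%); in limma 511 of all probe sets (3.45%) and 4 of 75 genes (5.33%) had an unadjusted p under 0.05, with an adjusted p of 0.998 for each of the 4. Mrps17, already described in cortex, was at 8.01 and 7.69 in control and 8.20 and 7.95 in exposed hippocampus, where the groups overlapped, so that its exposure differences lay 1.16 ± 0.396 (SE) apart. Mrpl13 was at 9.30 and 9.59 in control and 9.77 and 9.12 in exposed hippocampus, with group means that were equal, and the difference between tissues was -0.89 ± 0.390 (SE). Mrps28, a small-subunit protein, was at 5.90 on both control arrays and 6.56 and 6.31 on the exposed arrays of cortex. In hippocampus it was at 5.89 and 5.76 in control and 4.71 and 5.58 in exposed mice. Mrpl46, a large-subunit protein, ran the other way, at 5.26 and 4.89 against 4.54 and 4.88 in cortex and at 4.51 and 4.89 against 5.30 and 5.40 in hippocampus. Non-overlapping groups of opposite direction in the tissues were found for 4 genes (Mrps28, Mrpl46, Mrps30 and Mrpl40), where 4.04% of all probe sets had them. The nearest control and exposed values nearly met for Mrpl46 in cortex (4.89 and 4.88) and for Mrpl40 in hippocampus (7.71 and 7.74).

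The median size of the exposure difference over the genes was 0.23 in cortex and 0.185 in hippocampus, and the median size of the difference between the 2 arrays of a group was 0.21 to 0.35. The median residual SD was 0.297 for the genes and 0.288 for all probe sets. In control hippocampus 55 of 75 genes were lower on array 6 than on array 1, by a median of 0.26. In exposed hippocampus 56 of 75 were lower on array 6 than on array 3, by a median of 0.22, whereas all probe sets shifted by -0.07 and 0.02 between the same arrays. In cortex 39 of 75 genes in controls and 48 of 75 in exposed mice were lower on array 6, by medians of 0.02 and 0.13. The nuclear genes of respiratory complex I shifted by -0.28 and -0.49 between the arrays of control and exposed hippocampus, and 22 and 31 of 35 were lower on array 6. Cytosolic ribosomal protein genes shifted by 0.04 and -0.57, with 26 and 55 of 59 lower. In control cortex they went the other way, by 0.36, with 52 of 59 higher on array 6. Complex I genes shifted there by 0.01, with 18 of 35 higher. In exposed cortex complex I and cytosolic ribosomal protein genes shifted by -0.19 and -0.3, with 26 of 35 and 47 of 59 lower on array 6. In the exposed mice of both tissues, then, all 3 gene sets had most members lower on array 6 than on array 3.

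**Figure D3:**
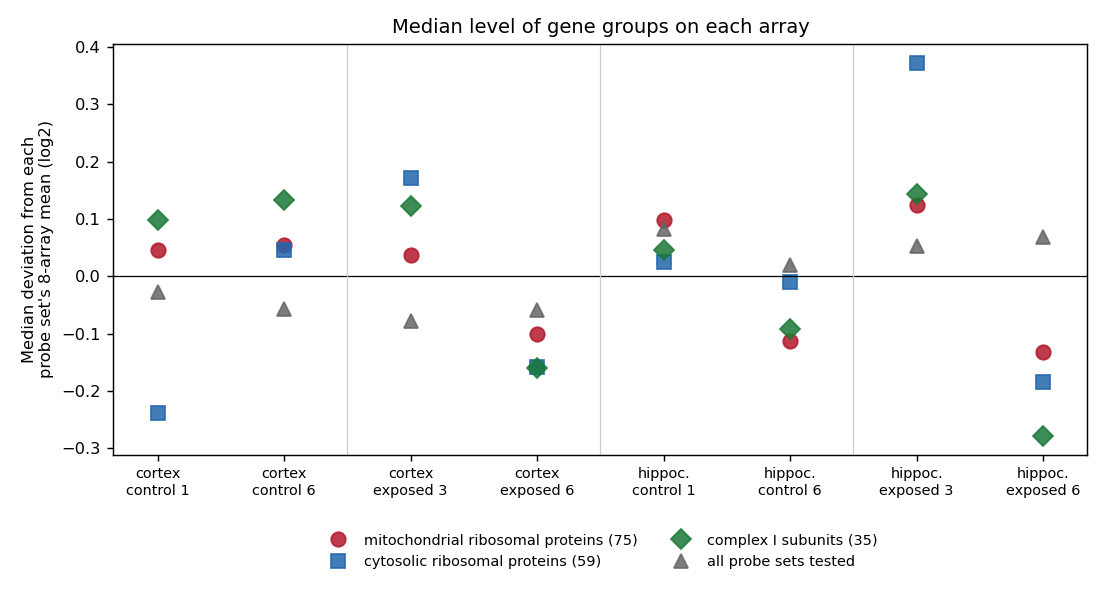
Median deviation from each probe set's mean over the 8 arrays (vertical axis, log2) on every array (horizontal axis) for mitochondrial ribosomal protein genes (75), cytosolic ribosomal protein genes (59), complex I genes (35) and all probe sets tested (14804). In exposed hippocampus the mitochondrial ribosomal protein genes stand at 0.125 on array 3 and -0.13 on array 6, while all probe sets stand at 0.053 and 0.069.

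Some of the genes hardly varied. Mrps33, a small-subunit protein, ran from 11.02 to 11.42 over the 8 arrays (SD 0.123), and Mrps5, a conserved small-subunit protein, from 8.75 to 9.12 (SD 0.126). Mrpl11, at the base of the ribosomal stalk, ran from 8.44 to 8.89 (SD 0.152). The largest SDs were 0.786 for Mrpl14, 0.732 for Mrpl43 and 0.701 for Mrpl34. The median SD over the 8 arrays was 0.347 for the genes and 0.393 for all probe sets. As a description over the 8 arrays, which share tissue and exposure differences, the genes of these 75 most like Mrpl3 were Mrps26, Mrps16 and Mrps18a (Pearson r of 0.751, 0.728 and 0.712). Those most like Mrpl34 were Mrpl49, Mrps14 and Mrps2 (0.891, 0.877 and 0.863).

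The second question is how the genes differ between the tissues. Averaged over control and exposed mice, 17 of 75 genes (22.7%) were called, against 31.3% of all probe sets. In hippocampus 7 were higher, where 19.5% of all probe sets were, and 10 were lower, where 11.9% were. The median over the genes was -0.035 and that of all probe sets 0.11. With quantile normalization, which brought the median of all probe sets to 0.01, 1 gene was called higher and 10 lower, and with each array centred on its median 2 were called higher and 10 lower. The 4 hippocampal and 4 cortical arrays did not overlap for 7 genes that were higher and 6 that were lower in hippocampus, and for 30.5% of all probe sets in either direction. Without the 2 arrays richest in choroid plexus markers 8 genes were called, and without cortex control array 1 or cortex exposed array 3 there were 7. Leaving out cortex control array 6 gave 10 and leaving out hippocampus control array 1 gave 14; leaving out cortex exposed array 6, hippocampus control array 6 or either exposed hippocampal array gave 11. All 7 neuron markers were lower in hippocampus, by a median of 0.32, and all 8 tested choroid plexus markers higher, by a median of 1.82. The choroid plexus difference came largely from hippocampus control array 1, where 100% of these markers lay above their own 8-array mean. On the other hippocampal arrays 25% to 37.5% did. The part of both marker lists in the gene values was not tested.

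Of the Mrpl genes, Mrpl14 differed most. Mrpl14 is a conserved protein at the interface between the subunits. It was at 3.70 and 4.36 in control and 3.67 and 4.16 in exposed cortex, and at 5.43 and 5.32 in control and 5.60 and 5.07 in exposed hippocampus. All hippocampal arrays lay above all cortical arrays, by 1.38 ± 0.242 (SE; limma adjusted p = 0.00113), or 2.61-fold. The cortical values, 3.67 to 4.36, lie on both sides of the filter limit of 3.94. So near the bottom of the scale the size of the difference is uncertain. Whether the log2 signal understates it there was not tested. Mrpl10 (0.62, adjusted p = 0.0296), of the stalk base, and Mrpl37 (0.608, adjusted p = 0.0284), of the mitochondrial lineage, were also higher in hippocampus.

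The large-subunit genes lower in hippocampus were Mrpl43, Mrpl36, Mrpl3, Mrpl4, Mrpl20 and Mrpl40. Mrpl3 was lower by 0.74 ± 0.164 (SE; limma adjusted p = 0.00504), with the values given above. Mrpl36, a small conserved protein, was at 4.55 and 4.53 in control and 4.31 and 4.41 in exposed cortex, and at 3.67 and 3.55 in control and 3.76 and 3.54 in exposed hippocampus. All hippocampal values are under the filter limit, so Mrpl36 passed the filter through its cortical values alone and had to differ to be tested. Its difference of -0.82 (limma adjusted p = 0.00937, and 0.00975 with no filter) is near the bottom of the scale and is given as a description, although it is counted among the 10. Mrpl43 was at 7.20 and 6.74 in control and 6.75 and 6.33 in exposed cortex, and at 5.92 and 5.16 in control and 6.46 and 5.24 in exposed hippocampus. The tissues overlapped for Mrpl43 through exposed array 3 of hippocampus, and its difference was -1.06 (adjusted p = 0.0166). Mrpl4, which lines the peptide tunnel, was lower by 0.733 (adjusted p = 0.013), Mrpl20 by 0.675 (adjusted p = 0.0475) and Mrpl40 by 0.633 (adjusted p = 0.018).

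Of the Mrps genes, 4 were higher and 4 lower in hippocampus. Mrps7, a conserved protein of the subunit's head, was at 8.79 and 8.63 in control and 8.36 and 8.29 in exposed cortex, and at 7.84 and 7.37 in control and 7.65 and 7.46 in exposed hippocampus. No arrays of the tissues overlapped, and the difference was -0.938 ± 0.189 (SE; limma adjusted p = 0.00287). Mrps27, a pentatricopeptide repeat protein (-0.805, adjusted p = 0.0173), Mrps26 (-0.758, adjusted p = 0.0153) and Mrps28 (-0.683, adjusted p = 0.0406) were also lower. The averaged difference of Mrps28 came almost wholly from the exposed mice. Its means in cortex and hippocampus were 5.90 and 5.825 in controls but 6.435 and 5.145 in exposed mice, where the hippocampal arrays were at 4.71 and 5.58. Mrps12, the conserved protein of the decoding centre, was at 6.87 to 7.05 in cortex and 7.46 to 7.60 in hippocampus, without overlap, and was higher by 0.553 (adjusted p = 0.0355). Mrps22 (0.835, adjusted p = 0.0168), Mrps18c (0.648, adjusted p = 0.0363) and Mrps9 (0.535, adjusted p = 0.0375) were higher as well. The calls of Mrpl14, Mrps7 and Mrpl3 held under every alternative run for them, and 13 others were lost under at least 1; Mrpl36 is left out of this count because of the filter.

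**Figure D4:**
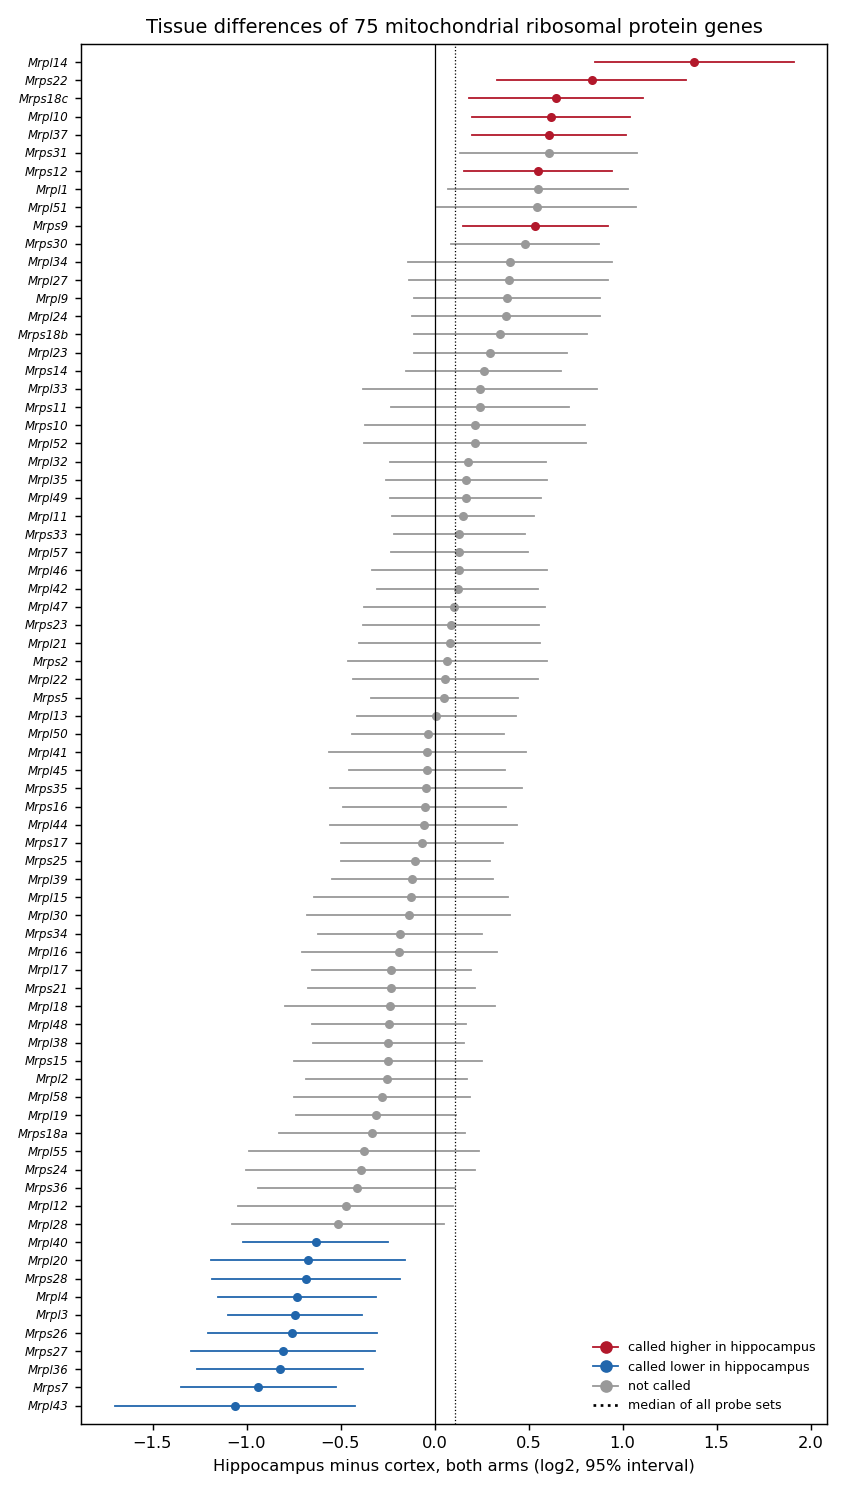
Hippocampus minus cortex difference, averaged over control and exposed mice (horizontal axis, log2), for the 75 genes tested, ordered by size; points are estimates, bars 95% intervals, and the dotted line is the median of all probe sets at 0.11. The 7 genes called higher are red and the 10 called lower are blue; Mrpl14 at 1.38 and Mrpl43 at -1.06 mark the ends.

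In control mice alone 7 genes were called between the tissues, 2 higher and 5 lower in hippocampus, against 17.7% of all probe sets (10.1% higher, 7.63% lower). They were Mrpl14 and Mrpl37, higher, and Mrps7, Mrpl43, Mrps27, Mrpl40 and Mrpl36, lower, where Mrpl36 again passed the filter through cortex alone, with differences from -1.43 for Mrpl43 to 1.35 for Mrpl14. Without the 2 arrays richest in choroid plexus markers 2 genes were called; without cortex control array 1 none was, and without cortex control array 6 or hippocampus control array 6 there was 1, and without either exposed cortex array, which enters through the shared spread, there were 4. In exposed mice 4 genes were called, 2 in each direction, against 14.5% of all probe sets (9.25% higher, 5.22% lower). Mrpl14 (1.42, adjusted p = 0.0161) and Mrps30 (0.865, adjusted p = 0.0415) were higher, and Mrpl3 (-0.925, adjusted p = 0.0193) and Mrps28 (-1.29, adjusted p = 0.02) lower. No call was left without cortex exposed array 3 or hippocampus exposed array 3, 1 without cortex exposed array 6 and 2 without hippocampus exposed array 6. Mrpl14 was the gene called in both arms. All 17 genes called in the average had the same sign in both arms, as did 56 of all 75. The 17 were called on the mean of these same 2 arm differences, which largely fixes a shared sign. No agreement between the arms is read from it.

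Mrps18a, Mrps18b and Mrps18c descend from the bacterial protein S18 and occupy different places in the ribosome. Mrps18a was at 9.27 and 8.49 in control and 9.42 and 9.48 in exposed cortex, and at 8.35 and 8.94 in control and 8.80 and 9.24 in exposed hippocampus. Mrps18b was at 7.12 and 7.75 against 7.17 and 6.87 in cortex and at 7.50 and 7.33 against 7.91 and 7.57 in hippocampus. Mrps18c, which passed the tissue test, was at 8.75 and 8.73 against 8.32 and 8.70 in cortex and at 9.43 and 9.07 against 9.67 and 8.92 in hippocampus. In the exposure comparisons the differences of Mrps18a were 0.57 and 0.375, those of Mrps18b -0.415 and 0.325 and those of Mrps18c -0.23 and 0.045, in cortex and hippocampus, and none passed the adjusted threshold.

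Genes with a bacterial homologue and genes added in mitochondria were compared by counts only. Of the Mrps18 genes only Mrps18c was placed in the first class. Mrps18a, Mrps18b, Mrps36 and Mrpl58 were in neither. Of 45 tested genes with a bacterial homologue, 5 were called higher and 6 lower in hippocampus, with a median of 0.053. Of 26 added genes, 2 were called higher and 4 lower, with a median of -0.04. Of all probe sets 19.5% were called higher and 11.9% lower, and their median was 0.11, so nothing particular to either class is read from these counts. The exposure medians in cortex were -0.08 and -0.13, with no call in either class. Ribosomal proteins of mitochondria with other names (Dap3, Ptcd3, Chchd1 and Gadd45gip1) gave no call in any of these comparisons.

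Other genes of mitochondrial translation were counted from lists. Exposure gave no call in either tissue among 17 translation factors or 25 assembly factors of the mitochondrial ribosome. It gave none among 17 genes of the mitochondrial aminoacyl-tRNA synthetase list, which also holds the amidotransferase subunit genes Gatb, Gatc and Qrsl1. Nor was there a call among 13 genes of mitochondrial biogenesis and transcription, 35 complex I genes or 59 cytosolic ribosomal protein genes. The assembly GTPase Gtpbp10 had the smallest exposure p of these lists in cortex, with a difference of 1.00 ± 0.257 (SE; limma adjusted p = 0.74). The exposure medians of the assembly factors were -0.15 in cortex and -0.135 in hippocampus, while those of cytosolic ribosomal protein genes were 0.065 and 0.145.

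Between the tissues, the lists had calls, to be read against 19.5% of all probe sets called higher and 11.9% lower in hippocampus. Among the factors, Lrpprc, which stabilises mitochondrial messages (0.895, adjusted p = 0.0051), and Mtfmt, the formyltransferase of the initiator tRNA (0.55, adjusted p = 0.0486), were higher in hippocampus. Of the assembly factors 4 of 25 were higher and none lower, led by the GTPase Mtg1 (1.02, adjusted p = 0.0028), with Rpusd3 (0.78, adjusted p = 0.0102) and Mettl15 (0.858, adjusted p = 0.0138). The synthetases Fars2 and Cars2 were higher, by 0.578 (adjusted p = 0.0312) and 0.753 (adjusted p = 0.0401). Of the biogenesis and transcription genes 3 were higher and 2 lower. Tefm, the elongation factor of mitochondrial transcription, was higher by 2.09 (adjusted p = 0.000125), while the coactivators Ppargc1a and Ppargc1b were lower by 0.958 (adjusted p = 0.00132) and 1.21 (adjusted p = 0.00228). Complex I genes had 2 called higher, Ndufv3 and Ndufa5, and 2 lower, Ndufa6 and Ndufs7, and a median of -0.153. Of cytosolic ribosomal protein genes 9 were higher and 2 lower, led by Rpl27 (1.95, adjusted p = 3e-05).

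Head-to-head neighbours had differences of like and of opposite sign. Over the 17 pairs with both genes tested, the signs were the same in 11 for exposure in cortex, in 9 for exposure in hippocampus and in 6 for the tissue difference. Mrpl32 and the proteasome gene Psma2, given as an example of like values, were both at 0.19 under exposure in cortex. In hippocampus they were at -0.165 and -0.155, and none of these differences passed the adjusted threshold. The other pairs described are some of those of named genes. Mrps7 and Gga3 start 224 bases apart and had tissue differences of the same sign, -0.938 and -0.203. Mrps11, a conserved small-subunit protein, and Mrpl46 start 42 bases apart around the stretch shown above. The exposure differences of Mrps11 were -0.01 in cortex and -0.04 in hippocampus, and those of Mrpl46 were -0.365 and 0.65, none past the adjusted threshold. Mrpl50 and the zinc finger gene Zfp189 start 93 bases apart. Zfp189 was at 5.57 to 5.73 in cortex and 8.08 to 8.91 in hippocampus, a difference of 2.93, whereas Mrpl50 differed by -0.04 between the tissues. Mrpl14 and Tmem63b, an ion channel gene, start 131 bases apart, and their tissue differences were 1.38 and -0.493 (adjusted p = 0.0732 for Tmem63b). Mrps12 starts 147 bases from Sars2, the mitochondrial seryl-tRNA synthetase gene, with tissue differences of 0.553 and -0.528 (adjusted p = 0.0776 for Sars2). Mrpl43 starts 116 bases from Twnk, the gene of the mitochondrial DNA helicase, which was at 3.36 to 4.05, was left out by the filter and is not compared. The difference between the neighbours of a pair was not tested.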

How the data were processed

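Log2 values of 22206 probe sets on 8 Affymetrix arrays were deposited by the authors, who used RMA per the submitters' processing notes; its version is not given in the sources used here. Per the labels' protocols, total RNA with an integrity number over 7 was amplified with a whole-transcript kit. Values ran from 1.59 to 19.93. Probe sets were named from the platform annotation, with 19572 holding 1 symbol and 2634 none. No second scaling was applied. The lowest 33.3% by mean were left out, and 4 group means were fitted with limma 3.58.1 (R 4.3.3; lmFit, eBayes with trend; 4 residual and 7.92 prior degrees of freedom), two-sided, with Benjamini-Hochberg adjustment. For the averaged exposure, arrays sharing arm and number were averaged first (2 residual and 9.5 prior degrees of freedom). Deviations of arrays sharing arm and number correlated at -9e-04 in controls and 0.276 in exposed mice, which does not settle whether equal numbers mark 1 mouse. The comparisons other than the averaged exposure treated the arrays as independent, with a replicate block among the alternatives. The members, gene lists and tests were chosen with earlier results of these data known. Named genes are those called, those with the smallest p under 0.05, those whose arrays do not overlap in both tissues, the Mrps18 genes and up to 3 genes per other list. Some head-to-head neighbours of named genes were added, with Mrpl32 and Psma2 as a further pair. Alternatives were other filters, scalings, variance models, blocks and arrays left out. The script was tested on simulated data. The number of arrays limits the precision.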

Additional observations from a re-analysis of the deposited data

Results flagged for a closer look

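For 4 genes every exposed array lay on the opposite side of the controls in hippocampus from its side in cortex. The exposure difference in hippocampus minus that in cortex was -1.215 for Mrps28, 1.015 for Mrpl46, 0.765 for Mrps30 and 0.395 for Mrpl40. The difference itself was tested with limma, and none passed after adjustment over all probe sets. Mrps30, whose product sits in the large subunit, was at 7.66 on both control arrays and 7.48 and 7.37 on the exposed arrays of cortex, and at 7.89 and 7.63 in control and 8.37 and 8.21 in exposed hippocampus. Mrpl40 was at 8.58 and 8.36 against 8.14 and 8.26 in cortex, and at 7.71 and 7.57 against 7.79 and 7.74 in hippocampus. Of all probe sets 4.04% had this order. The nearest control and exposed values nearly met for Mrpl40 in hippocampus (7.71 and 7.74) and for Mrpl46 in cortex (4.89 and 4.88).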

How the results depend on the processing

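No exposure comparison, nor the difference between tissues, had a called gene under any alternative run, and none of the genes called in a tissue comparison or with an unadjusted p under 0.05 changed sign in the comparison concerned. Signs of the other genes described, among them the small exposure differences of the Mrps18 genes, were not followed through the alternatives. The averaged exposure without the 2 arrays rich in choroid plexus markers could not be fitted, since no control pair was left. Averaged over arms, 17 genes were called between the tissues; quantile normalization gave 11, leaving out those 2 arrays 8, leaving out single arrays 7 to 14, and a replicate block on arm and number 20. Exposed mice had 4 calls, 7 with the replicate block and 0 to 6 without single arrays; controls had 7 calls, 2 without those 2 arrays and 0 to 6 without single arrays. Medians moved as follows. Averaged over arms (-0.035) the median was -0.154 with quantile normalization, -0.185 with centred arrays and -0.0975 to 0.0575 without single arrays. In exposed mice (0.005) it was -0.162, -0.135 and -0.12 to 0.185. In controls (-0.075) it was -0.235 with centred arrays, -0.26 without those 2 arrays and -0.22 to 0.105 without single arrays. The hippocampal exposure median (-0.04) was 0.1 without those 2 arrays and -0.185 to 0.14 without single arrays, and the averaged exposure median (-0.025) was -0.13 without exposed arrays 3. The causes were not tested. With 2 arrays per group, the median 95% interval of an exposure difference within a tissue reached 0.661 to either side.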
